A study of Mus musculus with 9 samples.

Results

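Integrins and cadherins are the receptors by which a cell holds on to the extracellular matrix and to its neighbours, and their genes were followed here through the conversion of 3T3-L1 preadipocytes into fat cells. The 46 genes were taken by symbol alone, as every gene whose symbol begins with Itga, is Itgb with a digit from 1 to 8, or begins with Cdh followed by a digit, out of 19094 genes listed in at least 1 sample. They comprised 18 integrin alpha genes, 8 integrin beta genes and 20 cadherin genes. Cdh8, Cdh9 and Cdh10, which the same rule would take, were not listed in any sample.

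RNA was sequenced from 3T3-L1 cells, an embryonic mouse fibroblast line that accumulates lipid under hormonal induction, on 3 days with 3 replicates each. Day 0 cells were nearly confluent preadipocytes in medium with fetal bovine serum that had received no inducer. Day 4 cells had been given dexamethasone, IBMX and insulin together for 2 days and insulin alone for the next 2, and day 8 cells had stayed in the insulin medium for 4 more days, so that serum was common to all 9 samples, none of which was an uninduced culture of the age of days 4 or 8. The study pooled the cells of each stage and describes each sample as an RNA mixture, so the p-values measure only the spread between these samples, which may be technical.

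An integrin is a dimer of an alpha and a beta chain that spans the membrane, and the pair decides the ligand. Some alpha chains bind laminins of the basement membrane, others bind collagens, and others bind proteins with the tripeptide Arg-Gly-Asp (RGD), such as fibronectin, whereas a further set is known from leukocytes. Cadherins bind cadherins on the next cell and are tied to actin by catenins, and a mature fat cell is known to be rounded and wrapped in a basement membrane, while a preadipocyte is a spread cell on a fibronectin matrix.

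Total expected counts ranged from 18216114 to 20452144 over the 9 samples (median 20182731). At these totals 3 counts of a gene correspond to 0.147 to 0.165 CPM (counts scaled to library totals), the floor used here, which covers counting error only. Levels are given as FPKM, the deposited fragment number scaled to transcript length and to the fragments mapped in the sample, since only values scaled to length can be set side by side between genes. Changes are log2 fold changes of expected counts with their standard error (SE) from the quasi-likelihood test of edgeR. A gene is said to rise or fall at a Benjamini-Hochberg adjusted p under 0.05 over all genes tested, and to be upregulated or downregulated where the change was also above 2-fold. The early phase compares day 4 with day 0, the late phase day 8 with day 4 and the whole process day 8 with day 0, and every pair of these comparisons shares the 3 samples of 1 day.

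The labels call the cells of all days adipocytes, but the adipocyte markers were low at day 0. The FPKM of 8 such markers (Adipoq, Fabp4, Plin1, Pparg, Cebpa, Lpl, Cd36 and Lep) summed to 145 ± 2.99 in day 0 cells, 6182 ± 1094 in day 4 cells and 8029 ± 391 in day 8 cells, as means ± SD of the 3 samples, the form of every ± below. Of the day 0 sum, Lpl alone had 117 ± 3.95 FPKM, and Adipoq had 0.503 ± 0.194. The 6 preadipocyte and fibroblast markers (Pdgfra, Pdgfrb, Dlk1, Thy1, Col1a1 and Vim) summed to 5272 ± 125, 3844 ± 167 and 4473 ± 73.6 FPKM on the 3 days, and each of 6 endothelial and 6 epithelial markers stayed under 1 FPKM in every sample, with Tie1 and Epcam not listed in any sample. The label text also names dorsal root ganglia as the source of the RNA. The 14 sensory neuron markers summed to 3.11 ± 0.080 FPKM at day 0, 1.83 to 2.05 in the day 4 samples and 2.09 ± 0.122 at day 8, Pou4f1 was not listed in any sample, and 12 of the 14 stayed under 1 FPKM in every sample. Of the 2 tested, Avil went from 2.32 ± 0.272 to 0.483 ± 0.060 FPKM between day 0 and day 8 and was downregulated, while Snap25 went from 0.027 ± 0.046 to 1.10 ± 0.049 and was upregulated. The 6 markers of Schwann cells and satellite glia summed to 3.87 ± 0.271, 7.47 ± 0.222 and 5.32 ± 0.572 FPKM at day 0, 4 and 8, most of it S100b, and Fabp7 was not listed. Over the whole process S100b, Pecam1 (endothelial) and Krt18 (epithelial) were upregulated and Vwf (endothelial) was downregulated, and the part of such cells in the results was not tested. In bulk RNA, fewer cells of a type and less RNA per cell cannot be told apart.

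Adhesion receptors were abundant in these cells, but few of the 46 genes carried most of the RNA. In every sample, 14 genes had at least 1 FPKM, 8 genes reached a mean of 10 FPKM on some day, and 25 genes stayed under 1 FPKM in all 9 samples. The 8 were Itga5, Itga6, Itgav, Itgb1, Itgb5, Cdh2, Cdh11 and Cdh13. The expression filter passed 28 genes, 14 of them alpha genes, 6 beta genes and 8 cadherins. The other 18 had at most 18 counts in any sample and are Itga2, Itga9, Itgam, Itgax, Itgb6, Itgb8, Cdh1, Cdh3, Cdh4, Cdh5, Cdh6, Cdh7, Cdh12, Cdh15, Cdh16, Cdh19, Cdh20 and Cdh22. E-cadherin (Cdh1), which joins epithelial cells, did not exceed 0.05 FPKM, and VE-cadherin (Cdh5), which joins endothelial cells, did not exceed 0.18 FPKM. Itgad, Itgae, Cdh17 and Cdh23 had fewer than 10 counts in every sample of at least 1 day, so that they passed the filter through the days on which they were higher.

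In the early phase, 5 of the 28 tested genes were upregulated and 9 were downregulated, where 17.8% of all 13154 tested genes were called in either direction, 9.77% upward and 7.98% downward. Itga6, Itga7, Itgad, Itgae and Cdh13 were upregulated, and Itga3, Itga11, Itgav, Itgb4, Itgb7, Cdh17, Cdh18, Cdh24 and Cdh26 were downregulated. The late phase had 5 upregulated genes, Itga8, Itga11, Itgad, Itgb5 and Cdh26, and 2 downregulated genes, Itga4 and Itga10, against 7.05% of all tested genes called, 4.24% upward and 2.81% downward. Over the whole process, Itga6, Itga7, Itga8, Itgad, Itgae and Itgal made 6 upregulated genes, and Itga3, Itga4, Itgav, Itgb7, Cdh2, Cdh17 and Cdh18 made 7 downregulated ones, against 18.0% of all tested genes called, 10.3% upward and 7.70% downward. The median log2 fold change of the 28 genes was -0.31 in the early phase, 0.25 in the late phase and -0.12 over the whole process, beside 0.02, -0.01 and -0.02 for all tested genes. Itga1, Itga2b, Itga5, Itgb1, Itgb2, Itgb3, Cdh11 and Cdh23 were called in no comparison. With limma on log2(FPKM + 1), where the pseudocount shrinks the changes of genes at a few FPKM or less, calls of Itga4, Itga8, Itga10, Itgad (early phase), Itgae, Itgal, Itgb4, Itgb7, Cdh17, Cdh18 and Cdh26 (late phase) were lost, and with log2(FPKM + 0.1) calls of Itga4, Itga8, Itga10, Itgal, Itgb4 and Cdh17. By adjusted p alone, without a limit on fold, 7 rose and 14 fell in the early phase, 12 and 8 in the late phase, and 9 and 11 over the whole process. Of all tested genes, 69.2% passed in the early phase (35.5% higher, 33.7% lower), 45.3% in the late phase (22.5% higher, 22.7% lower) and 71.0% over the whole process (34.8% higher, 36.2% lower). In CPM scaled with TMM factors, the samples of both days did not overlap for 7 higher and 14 lower genes in the early phase, 12 and 9 in the late phase, and 10 and 12 over the whole process. The same held for 72.3% of all tested genes in the early phase (37.0% higher, 35.4% lower), 54.5% in the late phase (27.2% higher, 27.3% lower) and 75.5% over the whole process (37.0% higher, 38.6% lower). These counts describe the genes that passed the filter.

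**Figure D1:**
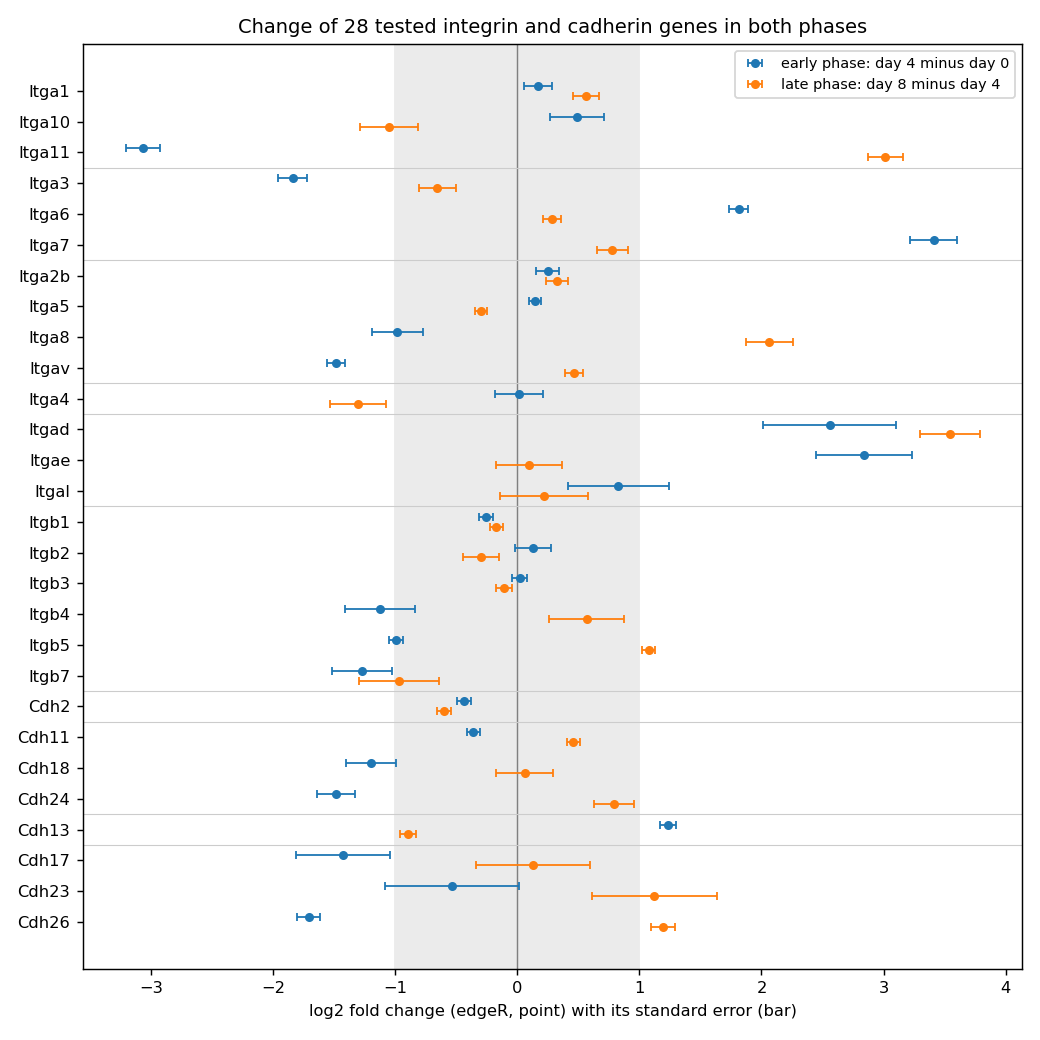
Log2 fold change of each of the 28 tested genes (rows, by gene group) in the early phase (blue, day 4 minus day 0) and the late phase (orange, day 8 minus day 4), each point with its SE as a bar and the grey band marking changes under 2-fold. Itga7 and Itga6 lie far to the right in blue (3.41 and 1.82), while Itga11 lies at -3.06 in blue and at 3.01 in orange.

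The promoters of Itga11, Itgav and Itgb5 are shown as examples of genes with their lowest level at day 4, the first for the size of its early fall and the other 2 as the chains of the same receptor (αvβ5). Each sequence is the RefSeq promoter window of 300 bases on GRCm38.p6, 250 before and 50 after the annotated start, read 5′ to 3′ on the plus strand, which is the gene's strand in each case. Capitals mark the GC box, searched as the letters GGGCGG on both strands. The Itga11 window lies at chr9:62677605-62677904, that of Itgav at chr2:83724147-83724446 and that of Itgb5 at chr16:33829415-33829714.
Itga11: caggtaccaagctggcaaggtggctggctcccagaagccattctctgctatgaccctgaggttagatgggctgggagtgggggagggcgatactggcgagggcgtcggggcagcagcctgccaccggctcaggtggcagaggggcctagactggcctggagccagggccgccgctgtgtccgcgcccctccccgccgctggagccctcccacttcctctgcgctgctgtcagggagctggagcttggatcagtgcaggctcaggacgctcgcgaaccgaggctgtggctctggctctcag
Itgav: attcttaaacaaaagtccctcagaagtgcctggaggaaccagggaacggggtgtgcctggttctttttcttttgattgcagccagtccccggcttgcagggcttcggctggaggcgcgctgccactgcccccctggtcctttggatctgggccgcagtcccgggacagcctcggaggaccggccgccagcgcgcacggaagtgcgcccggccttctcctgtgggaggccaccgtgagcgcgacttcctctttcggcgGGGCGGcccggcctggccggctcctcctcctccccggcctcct
Itgb5: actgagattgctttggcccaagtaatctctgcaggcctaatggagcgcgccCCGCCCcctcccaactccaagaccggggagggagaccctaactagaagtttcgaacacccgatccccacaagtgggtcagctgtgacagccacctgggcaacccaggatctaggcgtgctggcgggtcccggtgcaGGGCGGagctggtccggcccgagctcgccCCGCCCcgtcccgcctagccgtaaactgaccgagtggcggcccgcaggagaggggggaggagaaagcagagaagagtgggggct
The GC box was found 3 times in the Itgb5 window, 1 time in that of Itgav and not in that of Itga11, while 35.7% of 32851 promoters of this length hold it. The other letters searched on both strands, TATAAA for the TATA box (in 13.6% of all promoters), TGANTCA for AP-1 (7.81%) and CATTCC for TEAD factors (14.7%), were not found in these 3 windows. Itga8, Cdh11, Cdh24 and Cdh26 also had their lowest level at day 4, but no promoter was at hand for Cdh11. Of the windows of Itga8, Cdh24 and Cdh26, that of Cdh24 held the GC box, while the other letters searched were found in none of them. Promoters were at hand for 16 of the 28 tested genes, of which 7 held the GC box, 0 the TATA box, 1 the AP-1 letters and 2 the TEAD letters. A match describes letters in this window and not a bound site.

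The 3 laminin receptor chains moved in different directions. Itga6 and Itga7 rose in the early phase and rose further in the late phase, whereas Itga3 fell in both. Itga6 (NCBI gene 16403) encodes the alpha6 chain, which pairs with the beta1 or the beta4 chain to bind laminins. It had 8.73, 9.24 and 9.84 FPKM in the day 0 samples, 29.3, 30.6 and 33.5 at day 4, and 32.4, 39.7 and 38.3 at day 8. All day 0 samples were below all later samples, while the lowest day 8 sample was below the highest day 4 sample. The early log2 fold change of Itga6 was 1.82 (SE 0.08, edgeR adjusted p = 5.04e-12), or 3.52-fold, and the late one was 0.28 (SE 0.07, edgeR adjusted p = 0.00451).

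Itga7 (gene 16404) encodes the alpha7 chain, best known as the laminin receptor of skeletal muscle. Its FPKM was 0.46, 0.32 and 0.35 at day 0, 2.99, 4.18 and 4.42 at day 4, and 5.65, 6.38 and 7.22 at day 8. The 3 days did not overlap. Itga7 rose 10.6-fold in the early phase (log2 fold change 3.41, SE 0.19, edgeR adjusted p = 1.52e-10) and 1.71-fold in the late phase (0.78, SE 0.13, edgeR adjusted p = 0.000114), which made 18.2-fold over the whole process. Itga3 (gene 16400), whose alpha3 chain binds laminins of epithelial and other basement membranes, had 3.94, 3.97 and 3.75 FPKM at day 0, 1.13, 1.11 and 0.89 at day 4 and 0.67, 0.78 and 0.50 at day 8. No sample of a later day reached an earlier one. Its log2 fold change was -1.84 (SE 0.12, edgeR adjusted p = 1.17e-09) in the early phase and -0.65 (SE 0.15, edgeR adjusted p = 0.00248) in the late phase. In FPKM, Itga7 was below Itga3 in each day 0 sample and above it in each day 4 and each day 8 sample, by between 8.18 and 14.4 times at day 8.

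**Figure D2:**
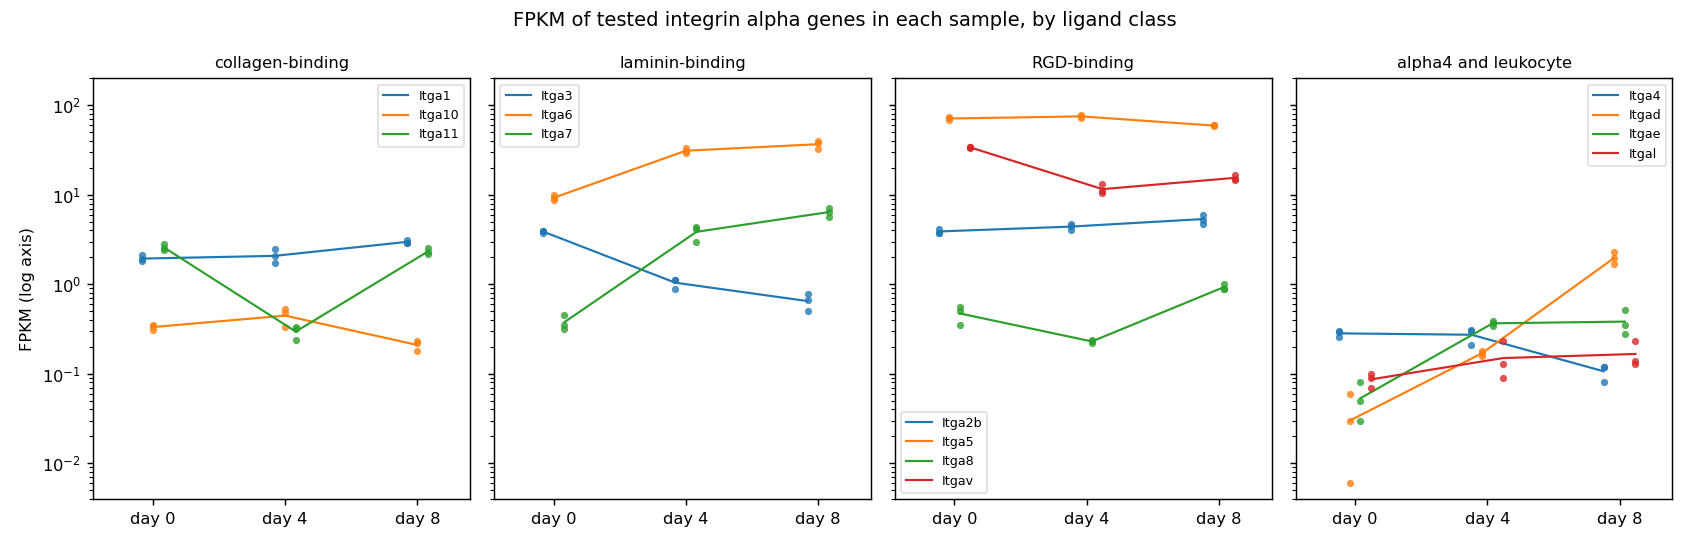
FPKM (log axis) of the 14 tested integrin alpha genes in each sample (points) at day 0, 4 and 8, with lines through the daily means, in panels by ligand class; Itgad was not listed in day 0 replicate 3 and is drawn at the bottom there. Itga6 and Itga7 climb in the laminin panel, where Itga3 declines, and Itga5 keeps the highest level of all alpha genes, between 58.8 and 77.7 FPKM.

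The RGD receptors held the largest part of the alpha RNA on every day, but their members diverged. Itga5 (gene 16402), the fibronectin receptor chain alpha5, was the most abundant alpha gene in all 9 samples. Its FPKM was 73.8, 72.0 and 68.1 at day 0, 77.7, 75.8 and 72.5 at day 4 and 58.8, 59.7 and 59.9 at day 8. It rose slightly in the early phase (log2 fold change 0.15, SE 0.05, edgeR adjusted p = 0.0118) and fell in the late phase (-0.30, SE 0.05, edgeR adjusted p = 9.6e-05), both under 2-fold, and in FPKM the day 0 and day 4 samples overlapped. Itgav (gene 16410) encodes the alphav chain, which pairs with several beta chains to bind vitronectin, fibronectin, osteopontin and latent TGF-beta. It had 34.5, 33.8 and 33.5 FPKM at day 0, 13.2, 11.1 and 10.5 at day 4 and 14.8, 16.8 and 15.0 at day 8. No 2 days overlapped. Itgav fell 2.80-fold in the early phase (log2 fold change -1.48, SE 0.07, edgeR adjusted p = 2e-11) and rose 1.38-fold in the late phase (0.46, SE 0.07, edgeR adjusted p = 6.76e-05). Its whole-process change of -1.02 (SE 0.07) lay at the 2-fold limit and was -0.98 without day 8 replicate 1 and -0.98 without day 8 replicate 3.

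Itga8, whose alpha8 chain pairs with beta1 and binds nephronectin, and Itga2b, known from platelets as the alpha chain of the fibrinogen receptor, were lower. Itga8 had 0.51, 0.35 and 0.56 FPKM at day 0, 0.22, 0.24 and 0.23 at day 4 and 0.89, 0.89 and 1.02 at day 8, so that day 8 was the highest and day 4 the lowest without overlap. It rose 4.18-fold in the late phase (log2 fold change 2.06, SE 0.19, edgeR adjusted p = 2.59e-07). Its early log2 fold change was -0.98 (SE 0.21, edgeR adjusted p = 0.000633), and it passed 2-fold at -1.16 without day 0 replicate 2, -1.04 without day 4 replicate 2, -1.03 with upper-quartile factors and -1.05 with library size alone. The whole-process value of 1.08 became 0.91 without day 0 replicate 2 and 0.97 with library size alone. Exons of an annotated gene on the opposite strand cover 6.40% of the Itga8 exon bases, and whether the counting used strand was not stated. Itga2b had between 3.75 and 4.15 FPKM at day 0, 4.07 and 4.68 at day 4 and 4.77 and 6.02 at day 8, and it rose in both phases by under 2-fold (log2 fold changes 0.25 and 0.32, SE 0.09 each, edgeR adjusted p = 0.027 and 0.00807).

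The collagen receptors were expressed at low levels, and Itga11 showed the largest early fall of the 28 tested genes. The alpha11 chain pairs with beta1 and binds fibrillar collagens in fibroblasts. Itga11 (gene 319480) had 2.83, 2.45 and 2.53 FPKM at day 0, 0.33, 0.24 and 0.32 at day 4 and 2.29, 2.17 and 2.53 at day 8. The day 4 samples were far below all others, and day 0 and day 8 overlapped. It fell 8.36-fold in the early phase (log2 fold change -3.06, SE 0.14, edgeR adjusted p = 1.29e-11) and rose 8.08-fold in the late phase (3.01, SE 0.14, edgeR adjusted p = 1.04e-10). Over the whole process its log2 fold change was -0.05, with a 95% interval from -0.25 to 0.15. Itga1, whose alpha1 chain prefers collagen IV, had 1.90, 2.11 and 1.81 FPKM at day 0, 2.47, 2.05 and 1.72 at day 4 and 2.87, 3.17 and 2.90 at day 8. It rose 1.48-fold in the late phase (edgeR adjusted p = 0.000575), and all day 8 samples were above all earlier ones. Itga1 was below Itga11 in every day 0 sample and above it in every later sample, by at least 5.38 times at day 4. Gm49395 covers 4.11% of the Itga1 exon bases on the same strand.

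Itga10, a collagen receptor chain known from cartilage, had at most 0.53 FPKM. It was downregulated in the late phase (log2 fold change -1.05, SE 0.24, edgeR adjusted p = 0.00189), but the change was -0.91, -0.96 and -0.93 without day 4 replicate 1, day 4 replicate 2 and day 8 replicate 1. In GENCODE transcripts, 30.6% of its 50-base stretches also occur in transcripts of Gm42957, which overlaps it on the same strand, so its counts are uncertain. Itga2, the alpha2 chain of the platelet collagen receptor, was not tested, with at most 18 counts in a sample.

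The remaining alpha genes encode chains known from leukocytes or shared with them, and all stayed at a few FPKM or less. Itga4, whose alpha4 chain binds Vcam1 and fibronectin, had 0.30, 0.26 and 0.29 FPKM at day 0, 0.30, 0.21 and 0.31 at day 4 and 0.08, 0.12 and 0.12 at day 8, with day 8 below both other days. It fell 2.47-fold in the late phase (log2 fold change -1.31, SE 0.23, edgeR adjusted p = 0.000221), a call that was lost with limma at -0.20 on log2(FPKM + 1) and -0.85 on log2(FPKM + 0.1). Itgad (gene 381924), the alphad chain of a beta2 integrin, had expected counts of 5 and 2 in day 0 replicates 1 and 2, was not listed in replicate 3, which was taken as 0, and had 14, 15 and about 13 counts at day 4 and 135, 186 and 157 at day 8. Its FPKM at day 8 was 1.67, 2.29 and 1.97, higher than on any earlier day. The log2 fold change of Itgad was 2.56 (SE 0.54, edgeR adjusted p = 0.000539) in the early phase, where it rests on 7 counts at day 0, and 3.54 (SE 0.24, edgeR adjusted p = 8.11e-09) in the late phase. In GENCODE transcripts, 19.7% of its 50-base stretches are shared, most with its relative Itgax, which had 1 count over the day 0 samples and 3.24 to 11.6 counts per sample at day 8. Gm17831 covers 18.9% of the Itgad exon bases on the same strand, so its counts are uncertain.

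Itgae, the alphaE chain that pairs with beta7 and binds E-cadherin, had 0.08, 0.03 and 0.05 FPKM at day 0, 0.37, 0.39 and 0.34 at day 4 and 0.35, 0.28 and 0.52 at day 8. Day 0 was below the later days, which overlapped. It rose 7.16-fold in the early phase (log2 fold change 2.84, SE 0.40, edgeR adjusted p = 8.62e-06), starting from 2 to 6 counts per sample. Itgal, the alphal chain of lymphocyte LFA-1, passed the threshold over the whole process (log2 fold change 1.05, SE 0.40, edgeR adjusted p = 0.0291) with 7 to 10 counts at day 0 and 14 to 24 at day 8. That call was lost with the Wald test of DESeq2 (adjusted p = 0.0511), with upper-quartile factors (0.99) and with library size alone (0.94), and its log2 fold change was 0.87 without day 0 replicate 1, 1.10 without day 0 replicate 3 (adjusted p = 0.0549) and 0.76 without day 8 replicate 3. Leaving out day 4 replicate 2 brought an early call of 1.06. Of the 10 leukocyte markers examined beside these genes, Cd3e and Tyrobp were not listed in any sample, Ptprc (CD45) had a daily mean of at most 0.017 FPKM, and 8 stayed under 1 FPKM throughout. The markers summed to 3.68 ± 0.650, 2.21 ± 0.170 and 2.84 ± 0.431 FPKM at day 0, 4 and 8, with Cd68 the most abundant. Lyz2, a macrophage and granulocyte lysozyme, was the only tested leukocyte marker of 4 that was upregulated in the late phase, and the part of leukocytes in these values was not tested.

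Summed over the 18 alpha genes, the level was 129 ± 3.19 FPKM in day 0 cells, 132 ± 1.60 in day 4 cells and 133 ± 5.90 in day 8 cells, so the ranges overlapped while the composition shifted. The RGD class held 85.2 ± 0.496%, 69.6 ± 1.98% and 60.9 ± 2.17% of the alpha FPKM on the 3 days in turn. The laminin class held 10.5 ± 0.577%, 27.4 ± 2.39% and 32.8 ± 2.0%. For both classes, no sample of 1 day lay within the range of another. The collagen class held 3.85 ± 0.070%, 2.22 ± 0.396% and 4.22 ± 0.045%, and the leukocyte class held 0.142 ± 0.016%, 0.532 ± 0.040% and 1.95 ± 0.190%. With 3 samples per day, an exact permutation test of 2 days cannot fall below p = 0.1, so these shares are given as descriptions. By level, Itga5 led on each day, Itgav was ahead of Itga6 at day 0, and Itga6 was above Itgav in all 3 samples of day 4 and all 3 of day 8, by between 2.19 and 3.18 times.

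**Figure D3:**
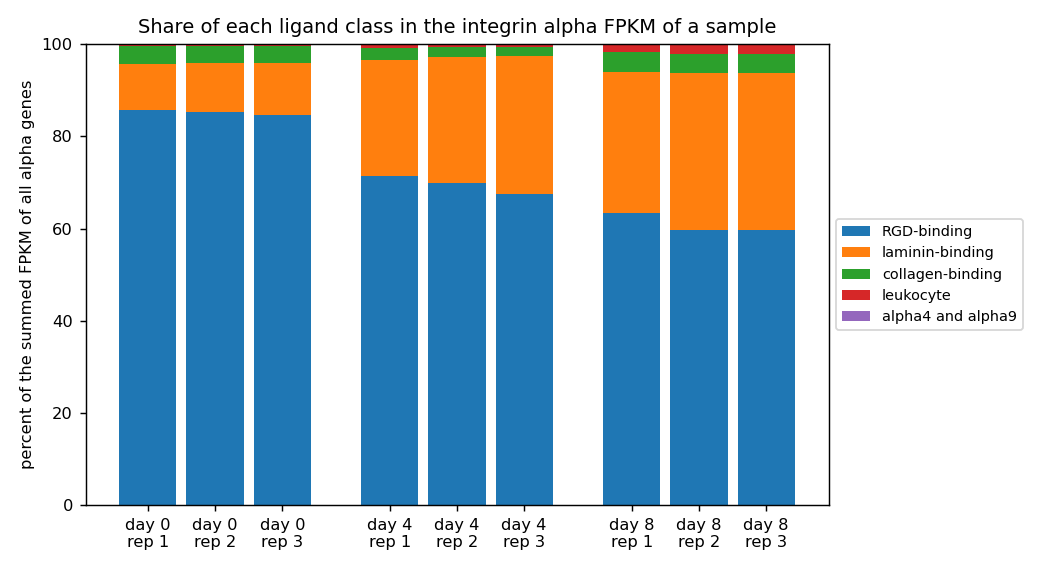
Percent of the summed FPKM of the 18 integrin alpha genes held by each ligand class in each of the 9 samples (stacked bars from 0 to 100). The laminin class grows from at most 11.1% at day 0 to between 30.5 and 34.0% at day 8 as the RGD class shrinks.

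Among the beta chains, the common partner beta1 fell slowly while beta5 dipped at day 4 and was back in its day 0 range by day 8. Itgb1 (gene 16412), which pairs with most of the alpha chains above, had 210.1, 213 and 203 FPKM at day 0, 182, 157 and 161 at day 4 and 141, 146 and 145 at day 8. The days did not overlap, and the falls were below 2-fold (log2 fold changes -0.25 and -0.17, SE 0.05 each, edgeR adjusted p = 0.000587 and 0.0185). Itgb5 (gene 16419), whose beta5 chain pairs with alphav alone and binds vitronectin, had 65.0, 64.2 and 59.6 FPKM at day 0, 31.0, 31.4 and 28.3 at day 4 and 64.9, 60.1 and 60.6 at day 8. Every day 4 sample was under every other sample, and day 0 and day 8 overlapped. It fell 1.99-fold in the early phase (log2 fold change -0.99, SE 0.05, edgeR adjusted p = 1.06e-10) and rose 2.11-fold in the late phase (1.08, SE 0.05, edgeR adjusted p = 2.12e-10). The early value sat at the 2-fold limit and was -1.03, -1.01 and -1.03 without day 0 replicate 3, day 4 replicate 1 and day 4 replicate 2, and -1.04 and -1.06 with upper-quartile factors and with library size alone. Over the whole process its log2 fold change was 0.09, with a 95% interval from -0.02 to 0.19, where its partner Itgav fell by 1.02.

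Itgb3, the beta3 chain shared by the vitronectin receptor αvβ3 and the platelet receptor, passed the threshold in no comparison. It had 9.91, 9.22 and 10.3 FPKM at day 0, 10.2, 9.15 and 9.17 at day 4 and 8.19, 9.12 and 8.41 at day 8, and its log2 fold change over the whole process was -0.08 with a 95% interval from -0.21 to 0.04. In share of the summed beta FPKM, Itgb1 held 73.3 ± 0.293%, 79.8 ± 1.08% and 66.5 ± 1.07% at day 0, 4 and 8, and Itgb5 held 22.1 ± 0.533%, 14.5 ± 1.05% and 28.6 ± 1.24%. Itgb1 was 5.01 to 5.89 times Itgb5 in the day 4 samples and 2.18 to 2.43 times in the day 8 samples.

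The beta chains of restricted partners were scarce. Itgb2, the partner of all leukocyte alpha chains except alphaE, had between 1.40 and 2.12 FPKM and passed the threshold in no comparison (log2 fold changes 0.13, -0.30 and -0.17, SE 0.15 each). Itgad was below Itgb2 in FPKM in every sample of day 0 and 4 and above it in every day 8 sample, by 1.17 to 1.57 times. The Itgad counts are uncertain, since it shares sequence with Itgax and exon bases with Gm17831 as given above. Itgb7, the partner of alphaE and alpha4, had 0.71, 1.10 and 1.05 FPKM at day 0, 0.40, 0.33 and 0.39 at day 4 and 0.20, 0.13 and 0.22 at day 8. The days did not overlap, and it fell 2.41-fold in the early phase (log2 fold change -1.27, SE 0.25, edgeR adjusted p = 0.000248). Its late value of -0.97 (SE 0.33, edgeR adjusted p = 0.0244) became -1.03, -1.03 and -1.11 without day 4 replicate 2, day 8 replicate 1 and day 8 replicate 3. Itgb4, the hemidesmosome chain that pairs with alpha6 in epithelia, had at most 0.51 FPKM while Itga6 had 32.4 to 39.7 at day 8. It was downregulated in the early phase (log2 fold change -1.12, SE 0.29, edgeR adjusted p = 0.00258), with -0.89 without day 4 replicate 1 and -0.95 without day 4 replicate 3, and its late value of 0.57 became 1.10 without day 4 replicate 2. An annotated gene on the opposite strand covers 8.41% of the Itgb4 exon bases. Itgb6 and Itgb8, further partners of alphav, were not tested, with at most 0.01 and 0.21 FPKM.

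The cadherin RNA was held by 3 genes, Cdh11, Cdh13 and Cdh2, and each had its own course. Cdh11 (OB-cadherin, gene 12552), a type II cadherin of mesenchymal cells, had 120.05, 120.24 and 125 FPKM at day 0, 98.1, 86.7 and 86.9 at day 4 and 125, 123 and 115 at day 8. Day 4 was below both other days, which overlapped, and the changes were under 2-fold (log2 fold changes -0.36 and 0.46, SE 0.05 each, edgeR adjusted p = 1.76e-05 and 3.39e-06). Cdh13 (T-cadherin, gene 12554) is anchored by a lipid without a cytoplasmic tail and is known as a receptor for the fat cell hormone adiponectin. It had 35.7, 36.5 and 37.6 FPKM at day 0, 92.1, 82.1 and 73.1 at day 4 and 44.6, 42.0 and 42.5 at day 8. The days did not overlap and day 4 was the highest. Cdh13 rose 2.36-fold in the early phase (log2 fold change 1.24, SE 0.07, edgeR adjusted p = 9.73e-11) and fell 1.86-fold in the late phase (-0.89, SE 0.07, edgeR adjusted p = 1.99e-08), ending 1.27-fold above day 0.

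Cdh2 (N-cadherin, gene 12558), the classical cadherin of fibroblasts, muscle and nerve, had 53.2, 51.6 and 52.5 FPKM at day 0, 40.3, 36.1 and 34.5 at day 4 and 22.6, 24.1 and 24.1 at day 8. Each day lay below the day before it in all samples. Its log2 fold change was -0.44 (SE 0.06, edgeR adjusted p = 4.25e-06) in the early phase, -0.60 (SE 0.06, edgeR adjusted p = 4.25e-07) in the late phase and -1.04 (SE 0.06, edgeR adjusted p = 1.33e-10) over the whole process, the last being -0.998 without day 8 replicate 1. Cdh13 was below Cdh2 in every day 0 sample, at 0.672 to 0.717 of its FPKM, and above it in every later sample, by 2.12 to 2.28 times at day 4. The summed cadherin FPKM was 224 ± 3.54, 214 ± 18.7 and 196 ± 5.92 at day 0, 4 and 8, of which Cdh13 held 16.3 ± 0.221%, 38.4 ± 1.37% and 22.0 ± 0.580% and Cdh2 held 23.4 ± 0.489%, 17.2 ± 0.107% and 12.1 ± 0.779%.

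**Figure D4:**
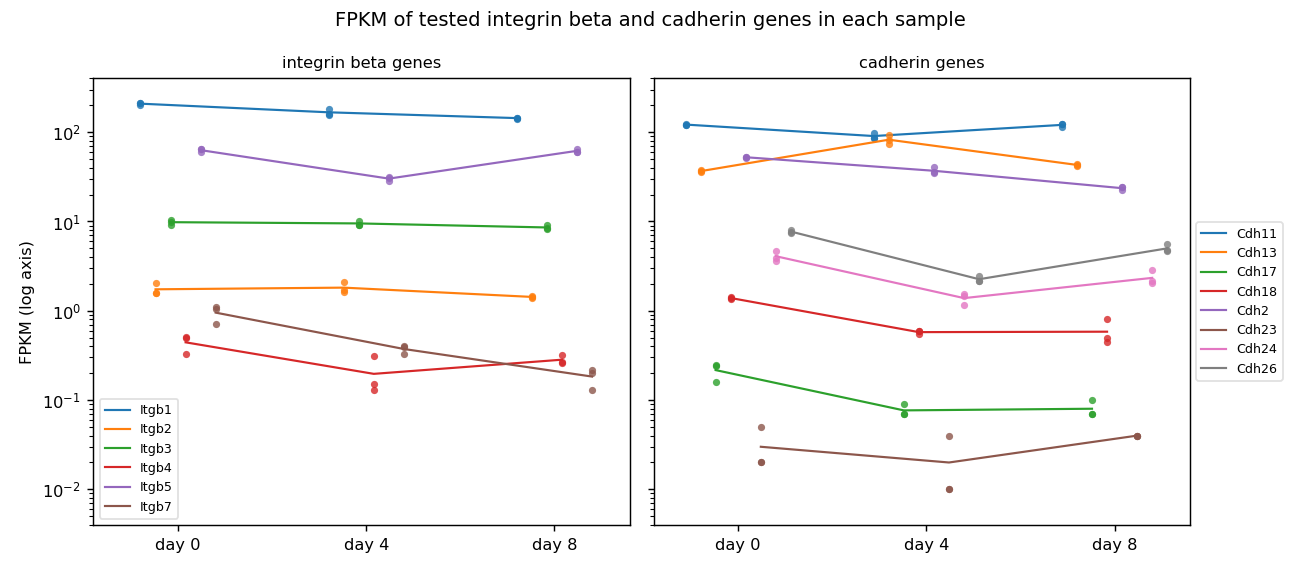
FPKM (log axis) of the 6 tested integrin beta genes (left) and the 8 tested cadherins (right) in each sample (points) at day 0, 4 and 8, with lines through the daily means. Itgb5 dips to between 28.3 and 31.4 FPKM at day 4, where Cdh13 peaks between 73.1 and 92.1.

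Of the 5 less abundant cadherins tested, 4 fell in the early phase, of which Cdh24 and Cdh26 rose in the late phase. Of all tested genes, 33.7% fell in the early phase and 22.5% rose in the late phase. Cdh26, a divergent cadherin known from epithelia, had 7.64, 7.44 and 8.05 FPKM at day 0, 2.14, 2.47 and 2.16 at day 4 and 5.54, 4.63 and 4.84 at day 8, without overlap between days. It fell 3.26-fold in the early phase (log2 fold change -1.71, SE 0.09, edgeR adjusted p = 1.02e-10) and rose 2.29-fold in the late phase (1.19, SE 0.10, edgeR adjusted p = 5.37e-08). Cdh24, a type II cadherin, had 3.92, 4.70 and 3.63 FPKM at day 0, 1.56, 1.45 and 1.15 at day 4 and 2.83, 2.03 and 2.15 at day 8, also without overlap. It fell 2.80-fold in the early phase (log2 fold change -1.48, SE 0.15, edgeR adjusted p = 2.64e-07) and rose 1.73-fold in the late phase (edgeR adjusted p = 0.000844). Cdh18, a type II cadherin of the brain, went from between 1.35 and 1.42 FPKM at day 0 to between 0.55 and 0.59 at day 4 and between 0.45 and 0.81 at day 8 (early log2 fold change -1.19, SE 0.20, edgeR adjusted p = 7.57e-05), and its whole-process value of -1.13 became -0.97 without day 8 replicate 1. Cdh17, the cadherin of liver and intestine, was downregulated in the early phase, with 10 to 18 counts per day 0 sample, between 5 and 6 per day 4 sample and between 5 and 7 per day 8 sample. Cdh23, the tip link cadherin of hair cells, had at most 12 counts in a sample and passed the threshold in no comparison, but its late log2 fold change of 1.12 (edgeR adjusted p = 0.0854) became 1.75 and was called without day 4 replicate 3.

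The ligands of these receptors were followed in lists by receptor class. The counts of calls stand against the shares of all tested genes, which were 9.77% up and 7.98% down in the early phase, 4.24% and 2.81% in the late phase, and 10.3% and 7.70% over the whole process. Counts of genes that rose or fell by adjusted p alone stand against 35.5% higher and 33.7% lower in the early phase, 22.5% and 22.7% in the late phase, and 34.8% and 36.2% over the whole process. Genes for RGD proteins were mostly lower at day 4. Of 11 tested, 8 fell and 2 rose in the early phase, 5 of the falls being downregulations, and 10 rose and 1 fell in the late phase, 2 of the rises being upregulations. Over the whole process 2 were upregulated and 4 downregulated, with median log2 fold changes of -0.79, 0.73 and -0.26. Fn1 (fibronectin), the ligand of α5β1, had 1145 ± 120.1 FPKM at day 0, 191 ± 28.1 at day 4 and 309 ± 17.5 at day 8. Its early log2 fold change was -2.53 (SE 0.10, edgeR adjusted p = 2.02e-12). Thbs1 (thrombospondin 1) went from 239 ± 7.07 to 18.2 ± 3.11 FPKM (log2 fold change -3.65, SE 0.09) and Spp1 (osteopontin), an αv ligand, from 260.02 ± 43.6 to 44.6 ± 5.65 (-2.47, SE 0.15), both downregulated from day 0 to day 4. Fbn1 (fibrillin 1) had 57.4 ± 3.78, 13.1 ± 2.09 and 35.8 ± 2.08 FPKM at day 0, 4 and 8, and Cyr61, a matricellular protein, had 258 ± 26.3, 84.5 ± 16.2 and 48.8 ± 2.01. Of the 4 tested ligands of alpha4 and alpha9, Tnc (tenascin C), Vcam1 and Svep1 were downregulated in the early phase, Tnc from 34.5 ± 0.955 to 2.94 ± 0.703 FPKM and Vcam1 from 72.3 ± 3.01 to 17.3 ± 1.84.

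Most laminin genes changed by under 2-fold. Among 8 tested, 1 was upregulated in the early phase and 1 in the late phase, while 2 were upregulated and 1 was downregulated over the whole process, with median log2 fold changes of 0.17, 0.22 and 0.53 in the early phase, the late phase and the whole process. The abundant chains Lama4, Lamb1 and Lamc1 had 49.6 ± 3.36, 73.0 ± 2.55 and 60.4 ± 3.42 FPKM at day 0 and 74.7 ± 3.07, 116 ± 5.99 and 68.4 ± 3.39 at day 8. Lamb2 was downregulated over the whole process (log2 fold change -1.11, SE 0.07, edgeR adjusted p = 5.24e-10). The upregulated ones, Lama2 and Lamb3, reached only 0.887 ± 0.035 and 1.98 ± 0.226 FPKM at day 8. Of 17 tested collagen genes, 7 were upregulated and 3 downregulated in the early phase, 2 and 1 in the late phase, and 6 and 2 over the whole process. The shares of all tested genes were 9.77% and 7.98% early, 4.24% and 2.81% late, and 10.3% and 7.70% over the whole process. Col4a1 and Col4a2, the collagen IV chains of the basement membrane, went from 232 ± 7.17 and 181 ± 7.94 FPKM at day 0 to 849 ± 31.5 and 521 ± 28.1 at day 4 (log2 fold changes 1.94 and 1.59, SE 0.06 each) and 485 ± 24.99 and 326 ± 15.2 at day 8. Over the whole process Col4a1 was upregulated (1.18, SE 0.06), while Col4a2 rose by under 2-fold (0.96, SE 0.06). Col6a3 was also upregulated in the early phase (1.61, SE 0.06) and Col5a3 over the whole process (1.58, SE 0.07), while Col8a1, a short-chain collagen, fell from 6.33 ± 0.438 to 0.413 ± 0.205 FPKM in the early phase (-3.87, SE 0.17). Icam5, the only tested gene in the list of leukocyte integrin ligands, fell in the early phase by just under 2-fold (-0.99, SE 0.18). Vcam1 was counted in the list of alpha4 and alpha9 ligands.

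Inside the cell, integrins are coupled to actin by adaptors such as talin, kindlin, vinculin and parvin. Of 29 tested adaptor genes, 20 fell and 6 rose in the early phase, where 33.7% and 35.5% of all tested genes did, and 8 of them were called, with 5 downregulated and 3 upregulated, against 7.98% and 9.77% of all tested genes. Flna (filamin A), Zyx (zyxin), Parvb (beta-parvin), Parvg and Dab2 were the downregulated ones. Zyx went from 268 ± 8.67 to 111 ± 10.2 FPKM (log2 fold change -1.21, SE 0.06, edgeR adjusted p = 4.38e-11) and Parvb from 16.3 ± 0.455 to 5.01 ± 0.305 (-1.63, SE 0.06, edgeR adjusted p = 1.44e-12). Tln1 (talin 1), which switches integrins to the active state, had 75.0 ± 0.998 FPKM at day 0 and 43.7 ± 3.91 at day 4. Tns1 (tensin 1), Ptk2b (the kinase PYK2) and Lims2 (PINCH2, a partner of integrin-linked kinase) were upregulated. Lims2 had 1.44 ± 0.147, 14.8 ± 0.354 and 4.3 ± 0.876 FPKM at day 0, 4 and 8, with log2 fold changes of 3.42 (SE 0.14, edgeR adjusted p = 2.71e-12) in the early phase and -1.73 (SE 0.12) in the late phase. In the late phase 1 adaptor was upregulated and 1 downregulated, against 4.24% and 2.81% of all tested genes, and over the whole process 1 and 3 were, against 10.3% and 7.70%.

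Catenins, which tie cadherins to actin, changed by under 2-fold. Of 8 tested catenin genes, 6 fell in the early phase, 2 fell and 2 rose in the late phase, and 5 fell over the whole process, where 33.7% of all tested genes fell early, 22.7% fell and 22.5% rose late, and 36.2% fell over the whole process. The median log2 fold change was -0.56, -0.01 and -0.46 in the early phase, the late phase and over the whole process. Ctnnb1 (beta-catenin), also a Wnt signal carrier, had 157 ± 2.06, 130.2 ± 4.02 and 142 ± 4.56 FPKM at day 0, 4 and 8, and Ctnna1 (alpha-catenin) had 97.8 ± 3.85, 64.1 ± 2.29 and 55.2 ± 2.02.

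**Figure D5:**
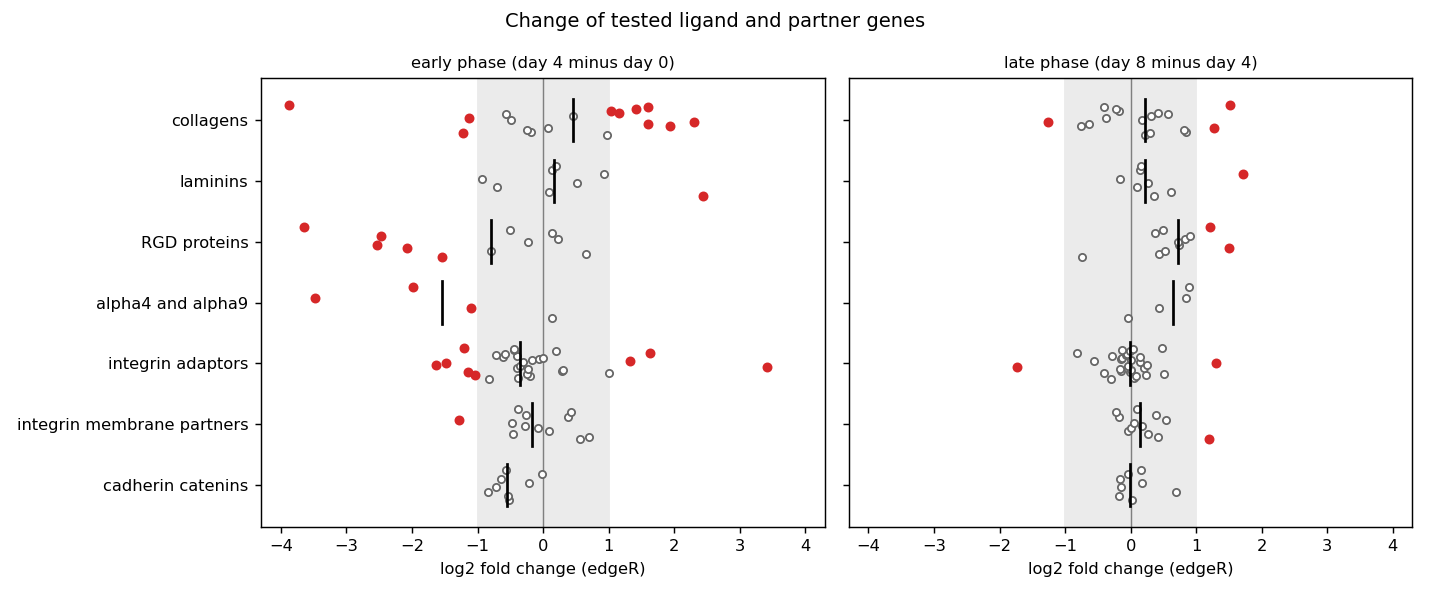
Log2 fold change of each tested ligand, adaptor, membrane partner and catenin gene (points) in the early phase (left) and the late phase (right), by list (rows), with the list's median as a black bar, filled red points for genes called at an adjusted p under 0.05 and above 2-fold, and the grey band for changes under 2-fold. In the early phase the bar of the RGD proteins stands at -0.79 and that of the collagens at 0.45.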

How the data were processed

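The 9 samples of 3T3-L1 cells, 3 per day, were grouped by the day and numbered by the replicate in their titles. Per the study's methods, the authors discarded poor reads, aligned the rest with HISAT/Bowtie2 and quantified genes with RSEM, and the submitters' processing notes name CASAVA 1.4 and Bowtie2. The authors deposited for each gene and sample an expected count, which is not normalized, an FPKM value, which is scaled to length and depth, and the transcript length. A gene missing from a sample's file was taken as 0 there. The genome build and the strand setting are not given in the sources used here, so no coordinates are printed apart from those of the RefSeq promoters. The label text names dorsal root ganglia and a BGIseq500 kit, while the study's methods name an Illumina platform. No column of another series' samples was used (0 columns).

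Expected counts, rounded to integers, were tested with edgeR 4.0.16 under R 4.3.3 (filterByExpr by day, TMM factors, glmQLFit and glmQLFTest). The model held all 9 samples, 1 coefficient for each day and no covariate. Each SE was derived as the log2 fold change over the root of its F value. Benjamini-Hochberg adjustment ran over the 13154 genes tested, and the steps were tested on simulated data. Replicates differed by more than sampling noise (chi-square per gene between 2.40 and 10.7), so none were merged. Shares are percentages of the summed FPKM of a gene family.

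The members and lists were chosen with earlier results of these data known. Every member that passed the filter is named, and of each partner list up to 5 genes with the largest change among those called in a comparison whose average log2 CPM was 1 or more. Lama4, Lamb1, Lamc1, Tln1, Ctnnb1, Ctnna1, Flna, Parvg, Dab2 and Icam5 were named outside that rule, after their values were seen. Alternatives were RLE, upper-quartile and library-size normalization, the absence of a filter, a minimum of 10 counts in each sample, DESeq2 1.42.0 (Wald test), the exact test of edgeR, limma 3.58.1 on log2(FPKM + 1) and log2(FPKM + 0.1), no fold threshold, separate fits of 2 days, a replicate block and leaving out each sample. GENCODE vM21 transcripts served to find 50-base stretches shared between genes. After Itga10 and Itgad, the largest shared parts were 7.51% for Itga4, 7.25% for Itgb5, 5.40% for Itgav and 5.31% for Itga6.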

Additional observations from a re-analysis of the deposited data

How the results depend on the processing

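Counts of called integrin and cadherin genes (5 up and 9 down in the early phase, 5 and 2 in the late phase, 6 and 7 over the whole process) stayed within 1.5 times under RLE, upper-quartile and library-size normalization, no filter, DESeq2, edgeR's exact test and separate fits of 2 days. With limma on log2(FPKM + 1), which shrinks low genes, 3 were up in the early phase, 3 up and 0 down in the late phase, and 3 up and 3 down over the whole process. With log2(FPKM + 0.1), 0 were down in the late phase. Requiring at least 10 counts in every sample, which removes low genes, left 3 up early and 3 up over the whole process. Without a fold threshold, 14 fell early, 12 rose and 8 fell late, and 11 fell over the whole process. Leaving out 1 sample gave 5 to 6 up and 9 to 12 down early, 5 to 6 up and 1 to 3 down late, and 5 to 6 up and 5 to 8 down over the whole process, the lowest late count coming without day 4 replicate 1. Of 1659 single values, 1571 kept direction and side of the threshold, 42 lost and 18 gained a call, and 28 changed sign, all of them uncalled. The sign changes were as follows. With library size alone, which moved the whole-process median of all genes from -0.02 to -0.13, Cdh11 (whole process) was -0.011, Itga4 (early) -0.051, Itgb3 (early) -0.046 and Itgb5 (whole process) -0.025. With upper-quartile factors Itga4 (early) was -0.035 and Itgb3 (early) -0.030. With limma on log2(FPKM + 1) Cdh11 was -0.012, Cdh18 (late) -0.00099, Itga4 -0.012, Itgb3 -0.042 and Itgb5 -0.025, and on log2(FPKM + 0.1) they were -0.012, -0.023, -0.048, -0.046 and -0.026. Leaving out 1 sample gave -0.040 to 0.23 for Cdh17 (late), -0.25 to 0.22 for Cdh18 (late), -1.16 to 0.064 for Cdh23 (early), -0.10 to 0.017 for Itga11 (whole process), -0.068 to 0.16 for Itga4 (early), -0.17 to 0.28 for Itgae (late), -0.055 to 0.66 for Itgal (late) and -0.034 to 0.059 for Itgb3 (early). The cause was not tested. A replicate block left the counts at 5, 9, 5, 2, 6 and 7 and all 84 values on their side of the threshold. Same-numbered samples of different days correlated at -0.03 to 0.07 in their deviations (mean 0.03, 9 pairs). The 18 other pairs had a mean of -0.02, and 6 of 9 samples correlated best with their own number. Whether same-numbered samples share more than their number was not tested further. At this depth, changes of genes with under 10 counts per sample, such as Itgad at day 0, rest on few reads.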

Other observations

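Genes that assist integrins at the membrane were examined beside the receptors. Of 12 tested membrane partner genes, 1 was downregulated in the early phase, 1 was upregulated in the late phase and 2 were upregulated over the whole process, where 7.98% of all tested genes were downregulated early, 4.24% upregulated late and 10.3% upregulated over the whole process. Cd151, the tetraspanin that binds laminin-binding integrins, had 53.6 ± 1.72, 84.4 ± 6.26 and 109 ± 7.57 FPKM (means ± SD of 3 samples) on the 3 days in turn and was upregulated over the whole process (log2 fold change 1.13, SE 0.06, edgeR adjusted p = 1.5e-10). Bsg (basigin), a chaperone of lactate transporters that also associates with integrins, had 328 ± 6.83, 462 ± 28.1 and 1025 ± 141 FPKM and was upregulated over the whole process (1.76, SE 0.08, edgeR adjusted p = 1.42e-11). Plaur, the urokinase receptor, was downregulated in the early phase, from 7.68 ± 2.11 to 2.99 ± 0.471 FPKM (-1.29, SE 0.17, edgeR adjusted p = 4.85e-06).

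Of 13 tested genes of the wider cadherin superfamily, 2 were upregulated and 5 downregulated in the early phase, 5 were upregulated in the late phase, and 4 were upregulated and 5 downregulated over the whole process. Of all tested genes, 9.77% were upregulated and 7.98% downregulated early, 4.24% were upregulated late, and 10.3% and 7.70% were up- and downregulated over the whole process. The protocadherins Pcdh18, Pcdh19 and Pcdh7 were downregulated in the early phase. Pcdh18 had 28.9 ± 0.698, 5.04 ± 0.630 and 10.2 ± 0.632 FPKM at day 0, 4 and 8, Pcdh19 had 22.3 ± 0.459, 4.79 ± 0.512 and 3.87 ± 0.25, and Pcdh7 had 17.1 ± 0.474, 4.90 ± 0.376 and 6.21 ± 0.252. Fat1, a giant atypical cadherin, had 52.7 ± 1.90, 22.7 ± 4.25 and 20.9 ± 0.733 FPKM and was downregulated over the whole process (-1.22, SE 0.09, edgeR adjusted p = 5.94e-09). Clstn3 (calsyntenin 3), which is known at synapses and from lipid droplets of fat cells, rose from 0.280 ± 0.026 through 2.05 ± 0.244 to 5.84 ± 0.247 FPKM (whole process 4.48, SE 0.13, edgeR adjusted p = 6.05e-14).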
